A study of Homo sapiens with 60 samples.

Results

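The extracts of longan aril (labelled Longan Arillus) and zizyphus seed (labelled Zizyphi Semen) were compared in HepG2 cells at the highest dose of each. The comparison used the 6 libraries that carry those labels, 3 per extract, of the 60 in the series. Both extracts were made in 70% ethanol and given at 500 µg/mL for 24 h, and no genotype or other agent separates the groups. HepG2 is a human hepatocellular carcinoma line that keeps many functions of the hepatocyte. The series treated this line with herbal decoctions and single-herb extracts at high, medium and low doses, beside a DMSO vehicle. Longan and zizyphus were also given at 100 and 20 µg/mL, again as 3 libraries per dose. All 18 longan and zizyphus libraries carry sample codes of 1 set (set 10), whereas the 3 vehicle libraries have a set of their own (C1). The vehicle libraries are labelled 0.1% DMSO, whereas the text of the series gives 2%, and which applies is not given in the sources used here. The labels number the replicates without naming separate cultures. The p-values therefore rest on variation among libraries only, and that variation could be technical. Its estimate was shared by the 54 libraries of the 19 groups with replicates, which include other extracts.

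Several of the genes described here belong to the ways a liver cell senses nutrients, oxidants and foreign chemicals. ATF4 is a transcription factor whose translation rises when amino acids run short or other stresses phosphorylate eIF2α, and it switches on amino acid synthesis, amino acid import and tRNA charging. NRF2 is released from its inhibitor KEAP1 by oxidants and electrophiles and raises genes for glutathione, haem breakdown and detoxification. The aryl hydrocarbon receptor (AhR) binds planar aromatic compounds, many of plant origin, and induces CYP1A1. SREBP factors switch on cholesterol and fatty acid synthesis when sterols or insulin signalling call for it.

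The 6 libraries held 22036259 to 28852184 estimated read counts each, against 20744960 to 37999124 across the series. Mitochondrial transcripts took 10.6% to 12.4% of the counts in the 6 libraries and 15.2% to 18.4% in vehicle. All 10 hepatoma markers were present, with summed levels of 44900 to 48800 CPM (counts scaled by library size) with longan and 44400 to 48800 with zizyphus. Of the fibroblast markers, COL1A2, DCN and LUM were at 0 in both groups, and the summed level of 66.7 to 73.6 CPM was nearly all ACTA2 and PDGFRB. The endothelial markers KDR, TEK, EMCN and ERG were at 0, with sums of 4.42 to 5.96 CPM over the 7 markers. The immune sum of 1230 to 1320 CPM was nearly all LYZ, with CD3E at 0 and PTPRC at or under 0.0299 CPM. Erythroid and platelet markers summed to 0.648 to 1.46 CPM. Zizyphus replicates 2 and 3 lay farther from their group (SD of log2 deviations 0.137 and 0.156) than the other 4 libraries (0.0786 to 0.0919). In bulk RNA, fewer cells with a transcript and less of it per cell cannot be told apart.

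Few genes differed between the extracts, and all by less than 2-fold. Of 16924 genes tested, 9 (0.0532%) passed an adjusted p of 0.05 in edgeR's quasi-likelihood test with Benjamini-Hochberg adjustment. Of these, 6 (0.0355%) were higher with longan: ASNS, S100P, SCNN1A, SLC7A11, HMOX1 and SQSTM1. The other 3 (0.0177%), CYP1A1, NEDD9 and TIMP3, were lower with longan, that is, higher with zizyphus. At an unadjusted p under 0.05 there were 768 genes. The calls depend on the libraries that share the estimate of spread. A fit of the 6 libraries alone called 2 genes, of the 9 only ASNS (adjusted p = 0.0199), while the other 8 ranged from 0.0608 for SLC7A11 to 0.596 for SQSTM1 and TIMP3. A fit of the 18 longan and zizyphus libraries lost CYP1A1, NEDD9, S100P, SCNN1A and SQSTM1 (0.0569 to 0.393). With no filter on low counts TIMP3 (0.172) and SQSTM1 (0.0911) were lost, and with scaling by library size alone SQSTM1 (0.0547). With a replicate block added, the fit of the 18 libraries called 13 genes. Of the 9, only S100P was not among them (0.132, against 0.393 in that fit without the block). Among the 9394 genes of at least 10 CPM, the 95% interval of the difference lay inside 1.25-fold for 93.3% and inside 1.5-fold for 99.5%, so for most of these genes a larger difference is outside the interval. In 945 genes (5.58%) all 3 longan libraries lay above all 3 zizyphus libraries, and in 898 (5.31%) all lay below. Those shares are the background for the counts of list members that do not overlap. The lists were chosen with earlier results of these data known, so their counts are descriptions and not tests.

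**Figure D1:**
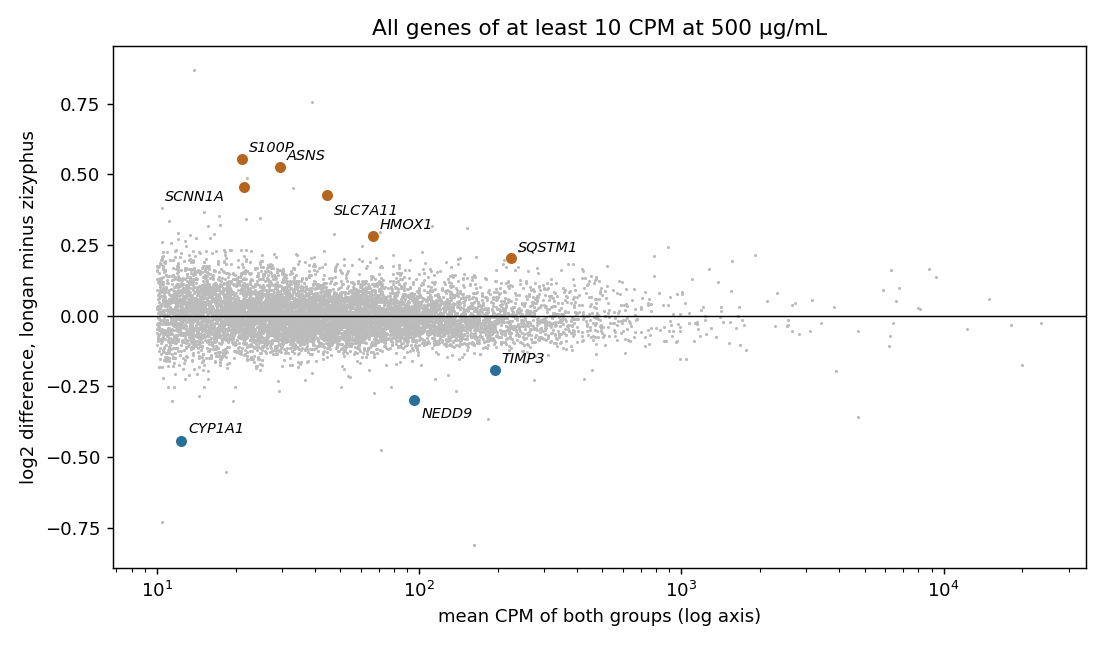
Each point is 1 gene of at least 10 CPM. The x axis is its mean CPM over both groups (log axis) and the y axis the log2 difference, longan minus zizyphus, at 500 µg/mL. The 9 called genes are coloured and named, and reach from -0.44 for CYP1A1 to 0.55 for S100P, with most grey points close to 0.

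The windows of 250 bases before the gene start were searched for 3 short motifs tied to these pathways: TGATGNAA (the C/EBP-ATF composite that ATF4 binds), GCGTG (the core bound by AhR) and TGACNNNGC (the core bound by NRF2), on both strands. RefSeq windows (GRCh38.p14) were found for 6 of the 9 called genes, ASNS, CYP1A1, NEDD9, S100P, SQSTM1 and TIMP3. Of the 6, 4 held a motif. Each site is shown in 30 bases, 5′ to 3′ on the strand of its gene, with the motif in capitals. The pathway lists described below are lists of gene names and do not rest on these letters.
ASNS: aggcaTGATGAAActtcccgCACGCgttac
S100P: acaacgatgcaTTTCATCAgaactgagcac
CYP1A1: ccagggaaggagGCGTGgccacacgtacaa
TIMP3: gcccacccactcGCGTGcccacggcggcat
The ASNS stretch is chr7:97872452-97872481 on the minus strand. It holds TGATGNAA at 68 to 61 bases before the RefSeq start, and GCGTG on the opposite strand at 53 to 49. In S100P (chr4:6693744-6693773, plus strand), TGATGNAA reads on the opposite strand at 123 to 116 bases before the RefSeq start. CYP1A1 (chr15:74725568-74725597, minus strand) and TIMP3 (chr22:32801480-32801509, plus strand) hold GCGTG at 57 to 53 and at 213 to 209 bases. TGATGNAA occurs in 3.14% of 35116 such windows, GCGTG in 32.2% and TGACNNNGC in 10.9%, so a GCGTG match is common. Distances are from the start in RefSeq, which differs from the ends of the genes in GENCODE 29 given below: the ASNS, S100P and CYP1A1 stretches lie inside the GENCODE 29 gene and that of TIMP3 outside it. A match is a description of the letters, not a measured binding site.

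ASNS, which makes asparagine from aspartate and glutamine and is a classic ATF4 target (chr7:97852118-97872542 in GENCODE 29, minus strand), gave the smallest p of all genes. It stood at 33.7, 35.6 and 34.4 CPM in the longan libraries and at 24.6, 24.9 and 22.6 CPM in the zizyphus libraries. The groups were far from overlapping, and the 3 vehicle libraries, at 33.8, 33.3 and 33.6 CPM, lay with longan. The log2 difference was 0.53 ± 0.053 (SE, 1.44-fold, 95% interval 0.42 to 0.63, edgeR adjusted p = 2.1e-08). Without each library in turn it ranged from 0.48 to 0.55 and stayed past the threshold every time. The level was low at the medium dose of zizyphus too, at 24.4, 23.5 and 25.5 CPM, but not at the low dose, at 32.7, 32.3 and 32.2 CPM. Longan gave 33.2 to 35.02 CPM in all 6 libraries of its low and medium doses. Among the 19 groups with replicates, ASNS was lowest in zizyphus high (24.0 ± 1.25 CPM, SD, n = 3) and zizyphus medium (24.5 ± 0.990, n = 3), whose values overlap. The next lowest, liriope high, stood at 30.1 ± 1.86 CPM (n = 3), and the highest, soshiho high, at 44.5 ± 2.07 CPM (n = 2). ASNS overlaps AC079781.5 on its own strand in GENCODE 29, so reads in shared sequence could go to either.

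The dose responses of ASNS differed between the extracts. From the low to the high dose ASNS fell by 0.43 ± 0.053 on the log2 scale with zizyphus (edgeR adjusted p = 3e-06) and was 0.02 ± 0.051 higher with longan (adjusted p = 1). The difference of these responses was 0.45 ± 0.073 (adjusted p = 0.00453), and ASNS was the only gene of 16924 (0.00591%) past the threshold of that test. It was lost without zizyphus high replicate 3 (0.41, adjusted p = 0.0738) and in a fit of only the 4 groups compared (0.45, adjusted p = 0.195).

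SLC7A11 is the cystine importer that feeds glutathione synthesis, and both ATF4 and NRF2 raise it (chr4:138164097-138242349). It stood at 48.0, 52.95 and 52.3 CPM with longan and at 37.9, 36.6 and 39.5 CPM with zizyphus, without overlap. Vehicle lay between them, at 47.1, 44.0 and 43.8 CPM. The difference was 0.43 ± 0.084 (1.34-fold, edgeR adjusted p = 0.0203). Among the 19 groups the means of zizyphus high (38 ± 1.45 CPM) and zizyphus medium (39.0 ± 0.172) were the lowest, while longan high was at rank 8 from the top. The call depends on single libraries: without longan high replicate 2 or 3 the adjusted p was 0.274 or 0.152, and without zizyphus high replicate 1, 2 or 3 it was 0.144, 0.195 or 0.0685.

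Of 30 genes listed as ATF4 targets, 28 were tested, and ASNS and SLC7A11 were the 2 called, both higher with longan. In 11 of the 28 all longan libraries lay above all zizyphus libraries, and in 0 all lay below. The median difference was 0.09 with 25 members above 0, against a median of 0.0012 over all genes with 50.6% above 0. The serine pathway enzymes PSAT1 and PHGDH were the next members: PSAT1 stood at 252, 258 and 246 CPM against 235, 223 and 212 CPM (0.17 ± 0.044, edgeR adjusted p = 0.303). PHGDH stood at 159, 151 and 149 CPM against 138.5, 131 and 130 CPM (0.20 ± 0.053, adjusted p = 0.358). Neither gene overlapped between the groups, though neither was called in the main fit. PHGDH was called with a replicate block within code set 10 (adjusted p = 0.0251). TRIB3, a pseudokinase that feeds back on ATF4 signalling, had means of 177 and 153 CPM (0.21 ± 0.061, adjusted p = 0.741). NUPR1, a small stress-induced chromatin protein, had means of 11.8 and 9.11 CPM (0.38 ± 0.12, adjusted p = 0.904). ATF4 mRNA itself had means of 317 and 297 CPM (0.09 ± 0.072). Members at nearly the same level in both groups were DDIT3 (-0.01 ± 0.11), the amino acid carriers SLC38A2 (0.00 ± 0.065) and SLC7A5 (-0.03 ± 0.050), and DDIT4 (0.01 ± 0.10). Of 12 aminoacyl-tRNA synthetases, which load tRNAs with amino acids, 0 were called and 3 lay above without overlap, with a median of 0.03.

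At the medium dose, 2 genes of 16924 (0.0118%) were called, both higher with longan: ASNS (0.49 ± 0.052, edgeR adjusted p = 1.48e-07) and ADM2 (0.51 ± 0.095, adjusted p = 0.0241). ADM2 encodes a secreted peptide of the calcitonin family and was singled out after its values were seen. Its medium-dose libraries stood at 7.28, 7.05 and 6.75 CPM with longan and at 4.99, 4.66 and 5.13 CPM with zizyphus. At the high dose they stood at 5.68, 7.48 and 6.76 CPM against 5.90, 5.70 and 5.87 CPM and overlapped. The medium-dose count fell to 1 without any 1 of the 6 libraries: longan medium replicate 1, 2 or 3, or zizyphus medium replicate 1, 2 or 3. Of the ATF4 list, 13 of 28 lay above without overlap at that dose and 0 below (background 6.73% and 6.67%), with a median of 0.12. At the low dose 0 genes were called by edgeR (301 at an unadjusted p under 0.05, and 2 by DESeq2), and of the ATF4 list 1 lay above and 0 below (background 3.18% and 2.77%).

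Within zizyphus, 6 genes (0.0355%) were called between the high and the low dose, ASNS the only ATF4 list member among them. There 10 of 28 lay below without overlap and 0 above (background 4.21% and 4.06%), with a median of -0.08. Within longan, 3 genes (0.0177%) were called, none of them from the list, of which 2 lay above and 0 below (background 4.6% and 4.67%) with a median of 0.01, which ranged from -0.003 to 0.022 over scalings and libraries left out. The zizyphus comparison shares its high-dose libraries with the comparison of the extracts, so the values are side by side and not independent.

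**Figure D2:**
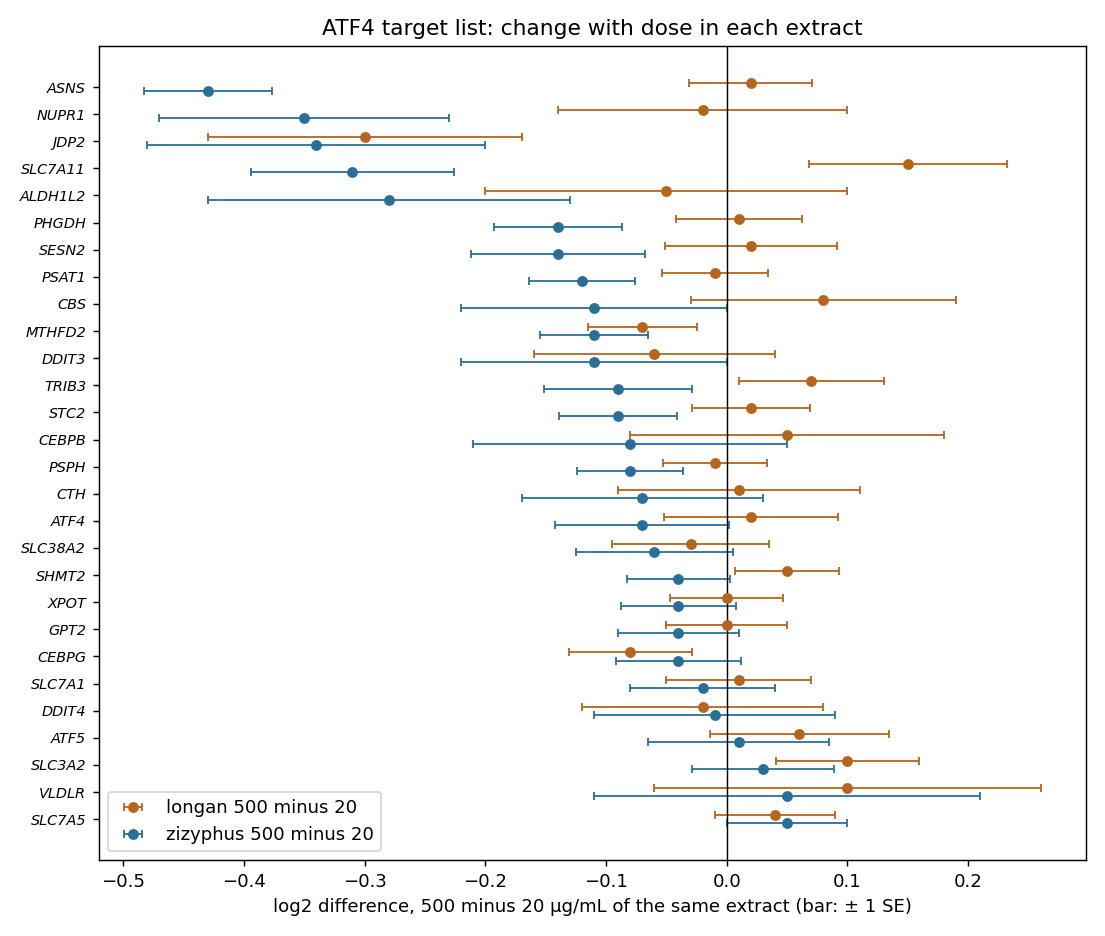
Each row is 1 of the 28 tested members of the ATF4 list. The x axis is the log2 difference between 500 and 20 µg/mL of the same extract, in brown for longan and in blue for zizyphus, with bars of 1 SE. ASNS is farthest left for zizyphus at -0.43 and near 0 for longan at 0.02.

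HMOX1, haem oxygenase, opens the haem ring to give biliverdin, iron and carbon monoxide and is induced through NRF2 (chr22:35380361-35394214). It stood at 72.9, 75.2 and 70.3 CPM with longan and at 61.2, 62.3 and 56.4 CPM with zizyphus. All longan libraries lay above, and the vehicle libraries, at 51.6, 58.4 and 57.8 CPM, overlapped those of zizyphus. The difference was 0.28 ± 0.057 (1.22-fold, edgeR adjusted p = 0.0238). Between the high and the low dose HMOX1 rose by 0.33 ± 0.057 with longan (adjusted p = 0.0125), and with zizyphus it was 0.12 ± 0.058 higher (adjusted p = 1). The difference of those responses, 0.21 ± 0.081, did not pass (adjusted p = 1). The call between the extracts was lost without longan high replicate 1 or 2 (adjusted p 0.166 and 0.427) and without zizyphus high replicate 1 or 3 (0.092 and 0.643). The rise within longan was lost without longan high replicate 1 (0.118) or 2 (0.121) and without longan low replicate 2 (0.23) or 3 (0.102).

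SQSTM1 encodes p62, an autophagy receptor that also binds KEAP1 and is itself an NRF2 target (chr5:179806398-179838078). It stood at 245, 240 and 233 CPM with longan and at 208, 212 and 205 CPM with zizyphus, without overlap, and vehicle ranged from 195 to 218 CPM. The difference was 0.20 ± 0.038 (1.15-fold, edgeR adjusted p = 0.00892). With longan the low-dose libraries stood at 217, 206.5 and 216 CPM, all under those of the high dose, while zizyphus had 211, 201 and 216 CPM at the low dose. The difference between the longan doses, 0.17 ± 0.038, was not called (adjusted p = 0.26). The difference of dose responses between the extracts, 0.18 ± 0.053, did not pass either. Between the extracts at the high dose the adjusted p was 0.166 and 0.0751 without longan high replicate 1 or 2. It was 0.0787 and 0.138 without zizyphus high replicate 1 or 3, so each of these 4 omissions ends the call. MGAT4B (147 CPM) and MRNIP (21.6 CPM) overlap SQSTM1 on the other strand. The library kit is directional, but whether the counting used strand is not given in the sources used here.

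Of 24 genes listed as NRF2 targets, 23 were tested, and HMOX1 and SLC7A11 were called, higher with longan. In 7 all longan libraries lay above, and in 0 below, with a median of 0.06 and 21 members above 0. Without zizyphus high replicate 2, 11 lay above, where 13.1% of all genes did. GCLM, a subunit of the enzyme that starts glutathione synthesis, had means of 42.5 and 36.8 CPM (0.21 ± 0.077, edgeR adjusted p = 0.997). FTH1, the ferritin heavy chain, had means of 2050 and 1770 CPM (0.21 ± 0.093), and the quinone reductase NQO1 483 and 446 CPM (0.12 ± 0.048), neither called. TXNRD1 had a mean of 174 CPM in both groups. Within longan, 15 of the 23 lay higher at the high than at the low dose and 0 lower (background 4.6% and 4.67%). All 23 were above 0, with a median of 0.12, and HMOX1 and AKR1C2 were called. Scaling by library size alone left 10 of the 23, where 3.21% of all genes lay higher. AKR1C2 is a keto-steroid reductase with near-identical family members that could share its reads (0.33 ± 0.061, adjusted p = 0.0196). That call was lost without longan high replicate 1 (0.423), 2 (0.121) or 3 (0.0819), and without longan low replicate 2 (0.426) or 3 (0.367). Within zizyphus 5 of 23 lay higher and 1 lower (background 4.06% and 4.21%), with 0 called and a median of 0.06. The median was 0.03 without zizyphus low replicate 2. Without zizyphus low replicate 1 it was 0.09 with 10 higher, where 8.44% of all genes lay higher. Without zizyphus high replicate 2 or 3, 8 or 9 lay higher, where 8.43% or 8.74% of all genes did.

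**Figure D3:**
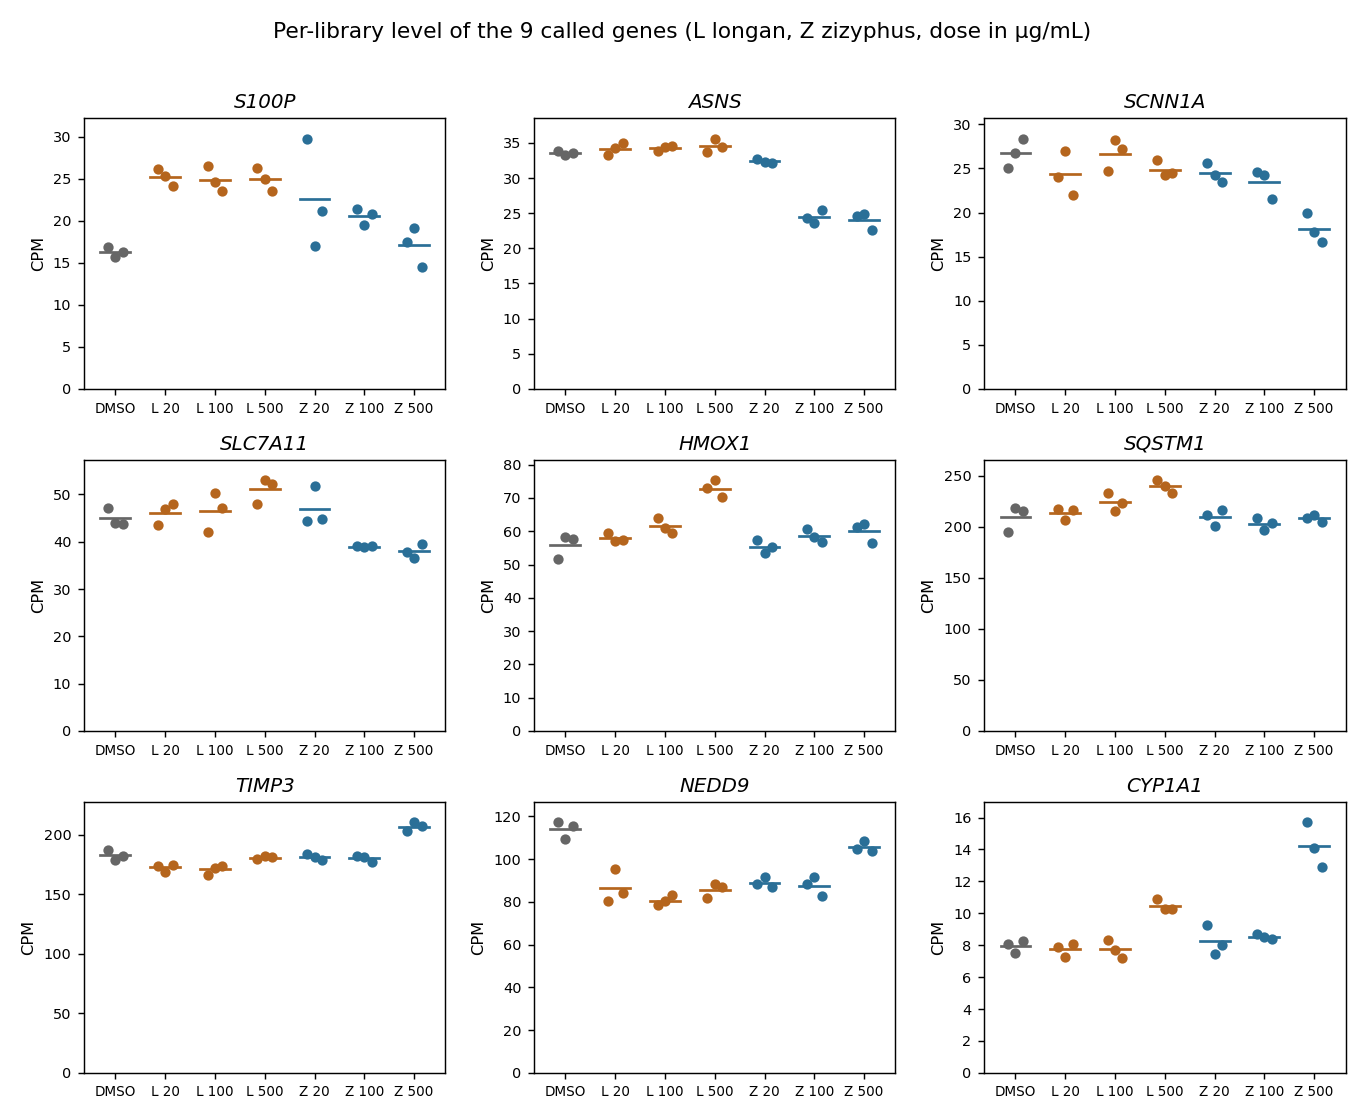
Each panel is 1 of the 9 called genes and each point 1 library, in CPM on an axis from 0. Groups are the vehicle (DMSO) and the doses of longan (L) and zizyphus (Z) in µg/mL, and lines are group means. ASNS drops between 20 and 100 µg/mL of zizyphus, whereas CYP1A1 stands apart from its lower doses at 500 µg/mL of both extracts.

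CYP1A1, the cytochrome P450 that oxidises planar aromatic compounds and the classic AhR target, was higher with zizyphus (chr15:74719542-74725610). It stood at 10.9, 10.3 and 10.3 CPM with longan and at 15.7, 14.1 and 12.9 CPM with zizyphus. Both groups lay above the 3 vehicle libraries, at 8.09, 7.51 and 8.26 CPM, and above their own medium-dose libraries, at 7.19 to 8.34 CPM with longan and 8.36 to 8.70 CPM with zizyphus. The difference between the extracts was -0.44 ± 0.077 (1.36-fold higher with zizyphus, edgeR adjusted p = 0.00395). From the low to the high dose CYP1A1 rose in both, by 0.79 ± 0.080 with zizyphus (adjusted p = 2.62e-08) and by 0.44 ± 0.082 with longan (adjusted p = 0.0196). The difference of those rises, -0.35 ± 0.12, did not pass over all genes (unadjusted p = 0.00428, adjusted p = 1). Among the 19 groups, zizyphus high was at rank 6 and longan high at rank 9, and soshiho high was the highest at 924 CPM. The call between the extracts was lost without zizyphus high replicate 1 (adjusted p = 0.161) or longan high replicate 2 (0.0625). The rise within longan was lost without longan high replicate 1 (0.423), 2 (0.121) or 3 (0.0819) and without longan low replicate 1 (0.0991), 2 (0.476) or 3 (0.102).

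Of 8 genes listed as AhR targets 7 were tested, and CYP1A1 was the only one called. TIPARP, which adds ADP-ribose to AhR and dampens it, had means of 18.2 and 18.9 CPM (-0.05 ± 0.077). CYP1A2, CYP1B1, AHRR and ALDH3A1 were all under 1 CPM on average in both groups, where the test has little to work with. In 1 member all longan libraries lay above and in 2 below.

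The other 4 called genes were SCNN1A, S100P, NEDD9 and TIMP3. SCNN1A, the alpha subunit of the epithelial sodium channel (chr12:6346843-6377730), stood at 25.9, 24.3 and 24.4 CPM with longan and at 20.0, 17.8 and 16.6 CPM with zizyphus. Vehicle, at 25.1, 26.8 and 28.4 CPM, and zizyphus low, at 25.6, 24.3 and 23.4 CPM, lay with longan. The difference was 0.46 ± 0.075 (1.37-fold, edgeR adjusted p = 0.00278), and from the low to the high dose of zizyphus SCNN1A fell by 0.43 ± 0.075 (adjusted p = 0.00453). Without zizyphus high replicate 3 both calls were lost (adjusted p 0.0685 and 0.127), and the second also without zizyphus high replicate 2 (0.054) or zizyphus low replicate 1 (0.0823). LTBR overlaps SCNN1A on the other strand at 72.6 CPM.

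S100P, a small calcium-binding protein often raised in tumours (chr4:6693069-6697170), had the largest difference of the called genes, 0.55 ± 0.11 (1.47-fold, edgeR adjusted p = 0.0238). It stood at 26.2, 24.9 and 23.6 CPM with longan and at 17.5, 19.1 and 14.6 CPM with zizyphus. Longan stood at 23.6 to 26.5 CPM at its lower doses as well, so all 9 longan libraries lay above vehicle (15.6 to 16.8 CPM). This was not particular to longan, because vehicle had the lowest mean of the 19 groups (16.25 ± 0.599 CPM, SD). The zizyphus medium libraries, at 21.37, 19.45 and 20.86 CPM, and the zizyphus low libraries lay above vehicle too. Code set and treatment cannot be told apart against vehicle. Zizyphus was scattered at the low dose, at 29.8, 17.0 and 21.1 CPM. The call was lost without longan high replicate 1 (0.316) or 2 (0.18), and without zizyphus high replicate 1 (0.125) or 3 (0.695).

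NEDD9, a scaffold protein of focal adhesions (chr6:11183298-11382348), stood at 81.8, 88.4 and 86.9 CPM with longan and at 104.5, 108 and 104 CPM with zizyphus. Vehicle was higher than both, at 117, 109 and 115 CPM, and the low dose of zizyphus, at 88.5, 91.6 and 87.0 CPM, lay near longan. The difference was -0.30 ± 0.051 (1.23-fold higher with zizyphus, edgeR adjusted p = 0.00289). Within zizyphus NEDD9 rose by 0.25 ± 0.051 from the low to the high dose (adjusted p = 0.048), a call lost without any 1 of those 6 libraries: zizyphus high replicate 1 (0.157), 2 (0.378) or 3 (0.127), or zizyphus low replicate 1 (0.263), 2 (0.0632) or 3 (0.335). The call between the extracts was lost without longan high replicate 1 (0.0769).

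TIMP3, an inhibitor of matrix metalloproteinases bound to the matrix (chr22:32801701-32863043), stood at 179, 182 and 181 CPM with longan and at 203, 210 and 207 CPM with zizyphus. The 3 vehicle libraries, at 187, 179 and 182 CPM, lay near longan. The difference was -0.19 ± 0.034 (1.14-fold higher with zizyphus, edgeR adjusted p = 0.00454), lost without longan high replicate 1 (0.0708). Within zizyphus TIMP3 rose by 0.19 ± 0.034 (adjusted p = 0.0059), lost without zizyphus high replicate 2 (0.0969) or 3 (0.0598) or zizyphus low replicate 3 (0.117). SYN3 overlaps TIMP3 on the other strand at 6.67 CPM. The zizyphus dose comparison also called SLC13A3, a dicarboxylate carrier, which fell by 0.32 ± 0.047 (adjusted p = 0.000234). Its high-dose libraries stood at 65.2, 62.3 and 62.6 CPM with zizyphus, under the 72.6, 72.6 and 73.9 CPM with longan (0.20 ± 0.048, adjusted p = 0.156). SLC13A3 was likewise chosen after its values were seen.

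**Figure D4:**
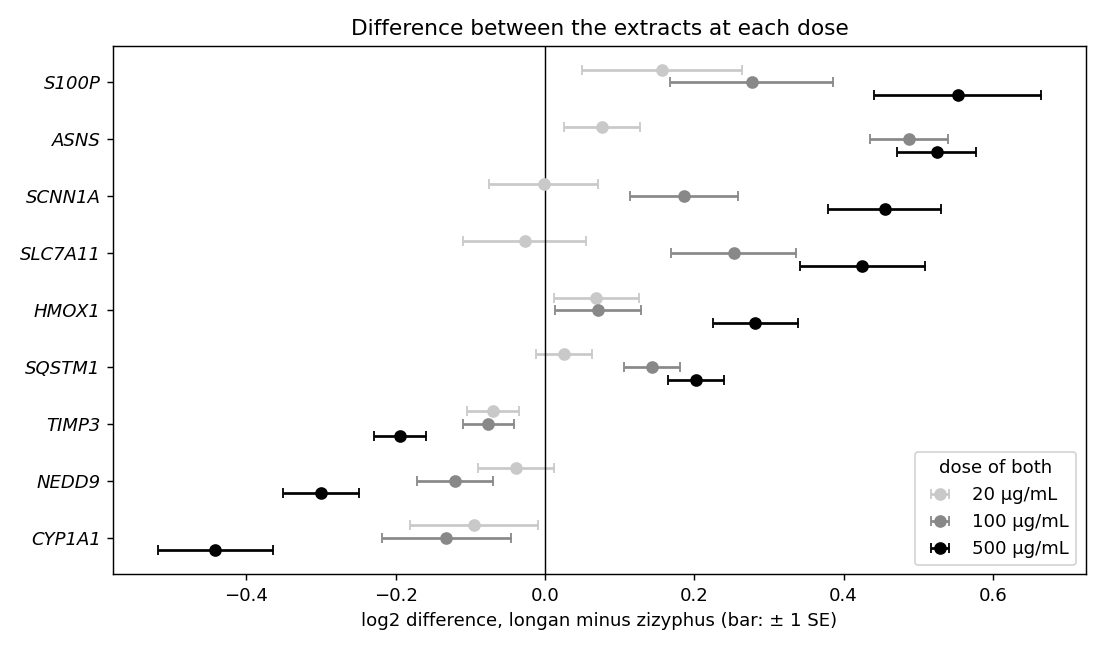
For the 9 called genes, the x axis is the log2 difference, longan minus zizyphus, with both at 20, 100 or 500 µg/mL (light grey, grey, black), and bars are 1 SE. ASNS is nearly as far from 0 at 100 µg/mL (0.49) as at 500 µg/mL (0.53), whereas HMOX1 and CYP1A1 move mainly at 500 µg/mL.

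Genes of lipid synthesis were slightly higher with longan at the high dose, with 0 of them called. Of 25 genes of cholesterol synthesis, 11 lay above without overlap and 0 below, with 22 above 0 and a median of 0.07. FDFT1, which commits farnesyl units to sterols, stood at 504, 492 and 485 CPM against 463, 466.5 and 419 CPM (0.14 ± 0.047, edgeR adjusted p = 0.942). HMGCS1, an early enzyme of the pathway, stood at 407, 407 and 399 CPM against 394, 378 and 354 CPM (0.11 ± 0.056). Of 13 fatty acid synthesis genes, 6 lay above and 0 below, with a median of 0.05 (0.10 without zizyphus high replicate 3 and 0.03 without zizyphus high replicate 2). SREBF1, their transcription factor, stood at 138, 129 and 136 CPM against 119, 115.5 and 119 CPM (0.19 ± 0.058, adjusted p = 0.8), while FASN had means of 2690 and 2620 CPM (0.04 ± 0.071). Within zizyphus, from the low to the high dose, 10 of the 25 cholesterol genes lay lower and 0 higher (median -0.08, background 4.21% and 4.06%). For the 13 fatty acid genes the counts were 6 and 0 (median -0.08). The latter median was -0.04 without zizyphus low replicate 2 and -0.13 without zizyphus low replicate 1. Without zizyphus high replicate 3 it was -0.13 with 10 lower, where 8.78% of all genes lay lower. Within longan the counts were 1 higher and 2 lower, and 0 and 1 (background 4.6% and 4.67%). The medians of -0.004 and -0.006 changed sign with single libraries left out (-0.03 to 0.008 and -0.024 to 0.014). At the medium dose 0 cholesterol genes lay above and 2 below between the extracts, and 0 and 0 of the fatty acid genes (background 6.73% and 6.67%). The 2 below are 8% of the cholesterol list, near that background.

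Other lists leaned towards zizyphus, also with 0 members called in the main fit. Of 30 genes of hypoxia and glycolysis, 25 were below 0, with 5 below and 1 above without overlap and a median of -0.09. The median was -0.06 without longan high replicate 3, and -0.15 without zizyphus high replicate 3, where 19 lay below (10.5% of all genes did). Without longan high replicate 2, 9 lay below, where 9.33% of all genes did. The glucose carrier SLC2A3 stood at 256.5, 262 and 237.5 CPM with longan and at 305, 312.5 and 269 CPM with zizyphus (-0.23 ± 0.067, edgeR adjusted p = 0.741). LDHA, which makes lactate, had means of 990 and 1100 CPM (-0.15 ± 0.060). The other glucose carrier, SLC2A1, ran the other way at 679 and 637 CPM (0.09 ± 0.045). At the low dose 26 of the 30 were above 0, with a median of 0.04. From the low to the high dose of zizyphus 28 were above 0, with 7 higher and 1 lower without overlap (background 4.06% and 4.21%). The median there was 0.16 (0.104 to 0.214 over scalings and libraries left out). With longan it was -0.003 (-0.021 to 0.05), with 3 higher and 1 lower (background 4.6% and 4.67%). Of 9 glucose-sensing genes 7 were below 0 (median -0.12), with 1 above and 1 below without overlap. Their median was -0.06 without longan high replicate 3. Without longan high replicate 1 it was -0.185 with 4 below, where 9.37% of all genes lay below. Without zizyphus high replicate 3, 5 lay below, where 10.5% of all genes did. From the low to the high dose of zizyphus 4 of the 9 lay higher and 1 lower (background 4.06% and 4.21%), with a median of 0.24 (0.15 to 0.309). With longan 0 lay higher and 0 lower (background 4.6% and 4.67%), with a median of -0.02 (-0.043 to 0.045). TXNIP, a glucose-induced brake on glucose uptake, overlapped between the groups (-0.25 ± 0.11, adjusted p = 0.997). With no filter on low counts SLC2A3 and TXNIP were called (adjusted p 0.0215 and 0.0376). Both were also called with a replicate block within code set 10 (0.0251 each). Of 28 mitosis genes 8 lay below and 0 above, with a median of -0.06, and TTK, a spindle checkpoint kinase, lay farthest at -0.15 ± 0.075.

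Iron and haem genes split. Of 21 tested, HMOX1 was called, 7 lay above and 3 below. HAMP, the iron hormone hepcidin, stood at 28.1, 24.4 and 24.4 CPM with longan and at 18.7, 20.6 and 15.9 CPM with zizyphus (0.48 ± 0.17, edgeR adjusted p = 0.942). TFRC, which takes up iron-loaded transferrin, stood lower with longan, at 410, 440 and 428 CPM against 500, 471 and 491 CPM (-0.19 ± 0.055, adjusted p = 0.704). Neither overlapped between the groups and neither was called in the main fit, though HAMP was with no filter on low counts (adjusted p = 3.42e-07). All 32 ribosomal protein genes were above 0 (median 0.09) with 1 above without overlap. Without zizyphus high replicate 3, however, the median was -0.01 and 11 were above 0. Without zizyphus high replicate 2 the median was 0.20 with 15 above without overlap, where 13.1% of all genes lay above. Of 21 lysosome and autophagy genes SQSTM1 was called, 5 lay above and 0 below, with a median of 0.04 (0.02 without zizyphus high replicate 3). Without longan high replicate 1, 8 lay above, where 9.77% of all genes did.

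**Figure D5:**
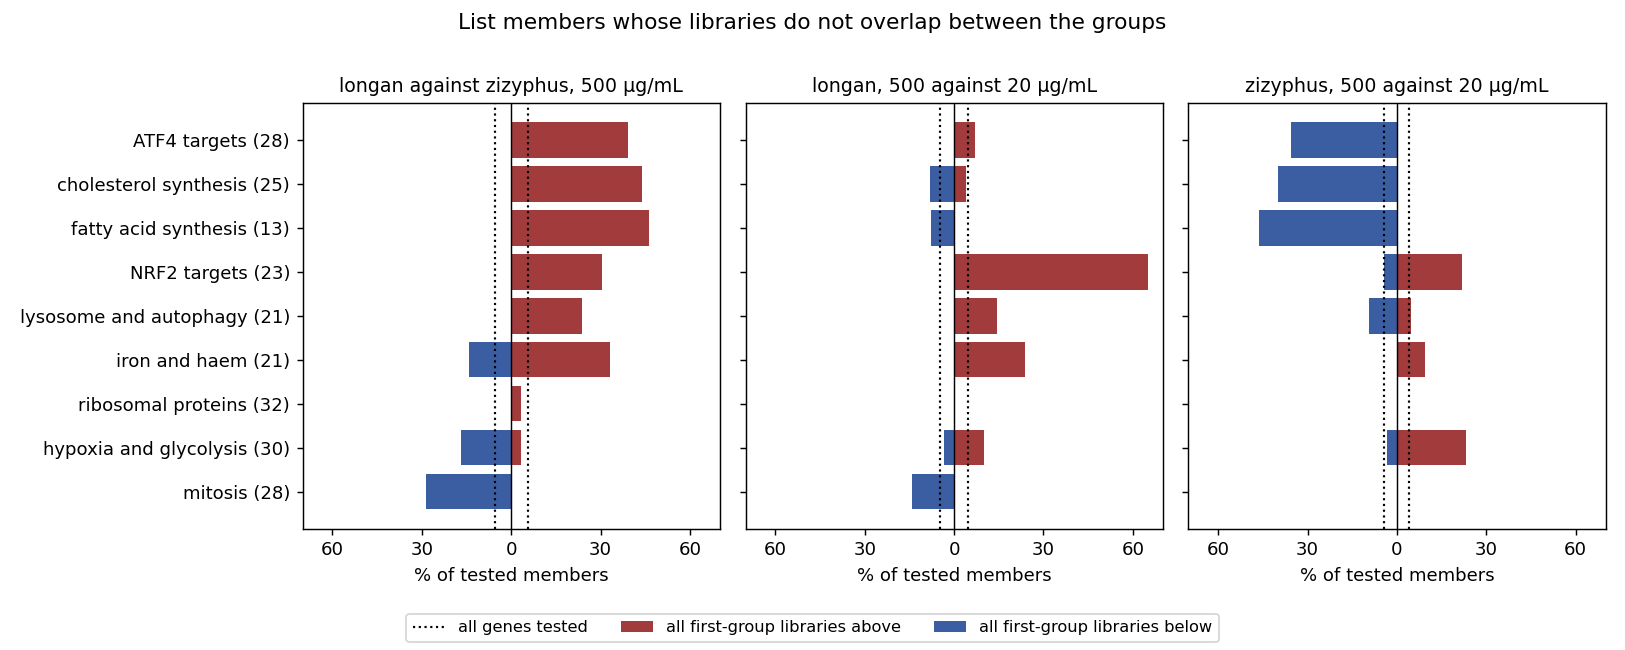
Bars give the percentage of tested list members (number in brackets) whose libraries do not overlap: to the right, all libraries of the first group are above, and to the left, all are below. Dotted lines give the same share over all 16924 genes. In the left panel (longan against zizyphus) the ATF4, cholesterol and fatty acid lists reach 39.3%, 44% and 46.2% against 5.58%.

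Against vehicle, both extracts differed in far more genes than from each other: 3321 (19.6%) with longan and 2857 (16.9%) with zizyphus at the high dose. These counts share the 3 vehicle libraries, and code set and treatment cannot be told apart in them. Without vehicle replicate 1 they fell to 2048 and 1867. With longan 1632 genes (9.64%) were higher than in vehicle and 1689 (9.98%) lower, and with zizyphus 1379 (8.15%) and 1478 (8.73%). The higher genes made up 49.1% and 48.3% of these calls, but 88.4% and 88% with scaling by library size alone. Of the 9 genes, longan differed from vehicle in NEDD9 (-0.41), S100P (0.62), CYP1A1 (0.40), HMOX1 (0.38) and SQSTM1 (0.19), with edgeR adjusted p from 3.24e-07 to 0.000595. Zizyphus differed in CYP1A1 (0.84), SCNN1A (-0.56), ASNS (-0.48), SLC7A11 (-0.24) and TIMP3 (0.18), with adjusted p from 3.13e-09 to 0.041.

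Just outside the threshold between the extracts, and described by value alone, were genes that were singled out by their p. Higher with longan were SLC13A3, NQO2, a quinone reductase (29.1, 30.02 and 32.2 against 26.1, 26.6 and 26.4 CPM, edgeR adjusted p = 0.203), and SELENOP, the hepatic selenium carrier (968, 983 and 931 against 841, 826 and 767 CPM, adjusted p = 0.291). PIR, an iron-binding nuclear protein, and HOXD1, a homeobox gene, followed at 0.35 ± 0.089 and 0.37 ± 0.093 (both adjusted p = 0.303). NKD1, an inhibitor of Wnt signalling, stood at 558, 553 and 551 CPM against 509, 462 and 501 CPM (adjusted p = 0.303). Lower with longan was HERC3, a ubiquitin ligase, at 15.9, 14.7 and 13.97 CPM against 25.8, 20.5 and 19.1 CPM (-0.55 ± 0.14, adjusted p = 0.303). None of these overlapped between the groups, and with no filter on low counts HERC3 was called (adjusted p = 1.66e-08). SMPD5 had the smallest p of the genes not called (adjusted p = 0.102, lower with longan) but means of only 0.0882 and 0.41 CPM, under the 5 CPM from which genes were named. ALB, the main hepatocyte product, differed by 0.03 ± 0.060, the metallothionein MT1G by -0.02 ± 0.21, and IGFBP1 by -0.25 ± 0.26, all with overlapping groups.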

How the data were processed

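RNA of 60 HepG2 samples was sequenced as 100 bp paired-end reads from directional libraries of RNA with an integrity number above 7, per the labels' protocols. The submitters' processing notes name FastQC 0.11.9, Trim Galore 0.6.5, STAR 2.7.3a, RSEM 1.3.3 and hg38; the annotation release is not given in the sources used here. The authors deposited expected counts per gene, of which 10.4% have a fraction; they were rounded to whole counts. Genes were filtered with filterByExpr, scaled by TMM and fitted with edgeR 4.0.16 (R 4.3.3) over the 19 groups with replicates (54 libraries), which share one estimate of the spread; 16924 genes were tested, 16698 with a symbol. Called means an adjusted p under 0.05. CPM are counts scaled by library size and TMM. Positions are from GENCODE 29. On simulated counts, the test of longan against zizyphus at the high dose recovered 58%, 84%, 96% and 100% of genes changed 1.25, 1.5, 2 and 4-fold, and 5.59% of its calls were false (16803 genes). The simulation planted 50 changed genes at each fold change and gave all libraries the same spread per gene. Counts were drawn from the fitted dispersion alone, without the further gene-wise spread that the test estimates. Its recovery can therefore be too high for the real comparison, and its share of false calls can differ there. Alternatives were DESeq2 1.42.0, other scalings, no filter, fewer groups, a replicate block and leaving out each library; scalings of the list medians were added after seeing the data. Named genes were the called ones of at least 5 CPM, filled up to 6 per direction by p, up to 4 per list by p, and 10 always reported; others are named where stated or as list members. The members and the 42 lists were chosen with earlier results of these data known. Lists not described in the results had 0 members called between the extracts in the main fit.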

Additional observations from a re-analysis of the deposited data

Results flagged for a closer look

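ASNS was singled out because its response to dose differed between the extracts by a direct test: the log2 change from the low to the high dose was 0.449 higher with longan than with zizyphus (edgeR interaction test, adjusted p = 0.00453, 3 libraries per group). The zizyphus high libraries all lay below those of zizyphus low, at 22.6 to 24.9 against 32.2 to 32.7 CPM, whereas longan high and low overlapped, at 33.7 to 35.6 and 33.2 to 35.02 CPM. With DESeq2 3 genes passed the same test, whereas ASNS did not pass in a fit of only the groups compared (adjusted p = 0.195) or without zizyphus high replicate 3 (0.0738).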

How the results depend on the processing

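The direction of all 9 called genes held in every setting tried. Their libraries do not overlap between the groups, so leaving out 1 library could hardly have reversed it. ASNS was past the threshold in all 13 settings (log2 0.482 to 0.549). The others passed in fewer: SCNN1A, NEDD9 and TIMP3 in 10, CYP1A1 in 9, HMOX1 in 8, SLC7A11 in 7, S100P in 6 and SQSTM1 in 5. Over the genes named, 732 values were unchanged in call and direction, including those of genes never called, such as NKD1 and POLK. Another 80 lost a call and 10 gained 1. The gains with no filter on low counts were HAMP, HERC3, ID1, ID3, IGFBP1, SLC2A3 and TXNIP. Those with a replicate block within code set 10 were PHGDH, SLC2A3 and TXNIP. A further 3 values changed sign. Those 3 were ALB (-0.042 without zizyphus high replicate 3, -0.042 to 0.066 over libraries left out) and MT1G (0.021 and 0.096 without zizyphus high replicate 1 and 2, -0.154 to 0.096 overall); of the 10 list medians between the extracts at the high dose, only that of the ribosomal proteins did (-0.01 without zizyphus high replicate 3), and medians near 0 at the medium dose and within each extract also changed sign. Counts of called genes follow in the order high doses, medium doses, low doses, difference of dose responses, longan high against low and zizyphus high against low, where the main counts are 9, 2, 0, 1, 3 and 6. With no filter on low counts they were 106, 121, 48, 64, 63 and 79. DESeq2 called 10, 1, 2, 3, 6 and 12. A fit of only the groups compared called 2 at the high doses, 1 at the medium doses, 0 for the difference of dose responses (ASNS adjusted p = 0.195), 0 for zizyphus high against low and 1618 for zizyphus against vehicle. Only code set 10 gave 5 at the high doses, 1 at the medium doses and 1 for longan high against low. The replicate numbers were not shown to pair the samples: same-numbered libraries at the high dose had correlations of -0.092 to 0.389, others -0.393 to 0.395. A replicate block within code set 10 gave 13 at the high doses, 1 at the medium doses, 2 for the difference of dose responses and 16 for zizyphus high against low. Leaving out 1 library gave 4 to 10, 1 to 1, 0 to 1, 0 to 2, 0 to 2 and 3 to 7, and against vehicle 2048 to 2992 for longan and 1867 to 2687 for zizyphus. The smaller fits hold fewer samples and also redo the filter, scaling and spread, and the cause of these changes was not tested. With 3 libraries per group, genes changed 1.25-fold were recovered in 58% of simulated cases, so smaller differences can go uncalled at this depth. The simulation held more changed genes than were called here, evenly spread libraries and no further gene-wise spread, so recovery in the real comparison may be lower.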
